A study of Mus musculus with 16 samples.

Results

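The sarcomere and contractile muscle genes are a set of 40 genes listed by symbol, out of 47251 genes that the array names. They comprise 19 genes typical of heart muscle, 5 of skeletal muscle, 5 of smooth muscle and 11 shared by striated muscles. They were read in CGR8-Myh6-GFP mESCs, a mouse embryonic stem cell line that carries a GFP reporter for the cardiac motor gene Myh6, during spontaneous differentiation towards cardiomyocytes. From day 4 the cells received vehicle (DMSO), 0.25 mg/ml of WS1442, an extract of hawthorn (Crataegus), or 0.1 mg/ml of MeOH eluate, a subfraction of that extract, and RNA was taken after 6 h or 24 h. Each time point had 2 DMSO, 3 WS1442 and 3 MeOH eluate samples, 16 in all in 6 groups. The labels do not say whether replicates were separate cultures, so p-values measure the spread between these samples, which may be technical. In such bulk RNA, fewer cells of a type and less RNA per cell cannot be told apart.

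A sarcomere is the contractile unit of striated muscle. Myosin heavy chains form the motors of the thick filament, and each heavy chain carries an essential and a regulatory light chain. Thin filaments of actin are covered by tropomyosin and switched by calcium through the troponin complex, while Z-discs and M-lines anchor the filaments. Smooth muscle has no sarcomeres and uses its own actin, light chain and actin-binding proteins, many of which are also made by cells that move or spread. In early heart formation the atrial regulatory light chain Myl7 is among the first of these genes to be switched on, and Myh6 marks beating cardiomyocytes.

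All 40 genes had probes on the array, 69 in total. By the gene name column of the scanner files only 14 of the genes could be found, since that column holds accessions for most probes, and the other genes were assigned through the RefSeq accession of the probe's transcript. The Agilent software called 29 of the 40 genes well above background on all 16 arrays. Of the other 11 genes, 6 reached that call throughout at least 1 group and were tested with the rest, which gave 35 tested genes. Such a gene can pass the filter through the group in which it is brightest, so the number that passed says nothing about treatment. Values are log2 signals after quantile normalization, and each gene is represented by its brightest probe.

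The cardiac motor genes were dim. Myh6, the gene whose promoter drives the reporter of this line, was well above background on 3 of 16 arrays, namely 1 with DMSO and 2 with WS1442 at 6 h, and on none at 24 h. Myh7, the slow cardiac motor, and Myoz2, a Z-disc protein, were well above background on no array. The Z-disc gene Nebl passed on 1 array and the embryonic skeletal motor Myh3 on 3. These 5 genes were not tested. Other heart genes were well above background on all 16 arrays, among them Myl2, Tnnt2, Mybpc3 and Actn2. Further dim genes were the calcium-store protein Casq2 (6 of 16 arrays), the slow skeletal troponin Tnni1 (9 arrays), the Z-disc gene Tcap, the M-line gene Myom2 and the actin-binding gene Xirp1 (12 arrays each) and the cardiac troponin Tnni3 (14 arrays). For Tcap and Casq2 no MeOH eluate array at 6 h was well above background. Neither was called there against DMSO, at adjusted p of 0.386 and 0.202 in the limma fit. Casq2 was well above background throughout only in DMSO at 6 h, so it entered the test through the brighter group of this comparison. All 5 smooth muscle genes passed on all 16 arrays.

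**Figure D1:**
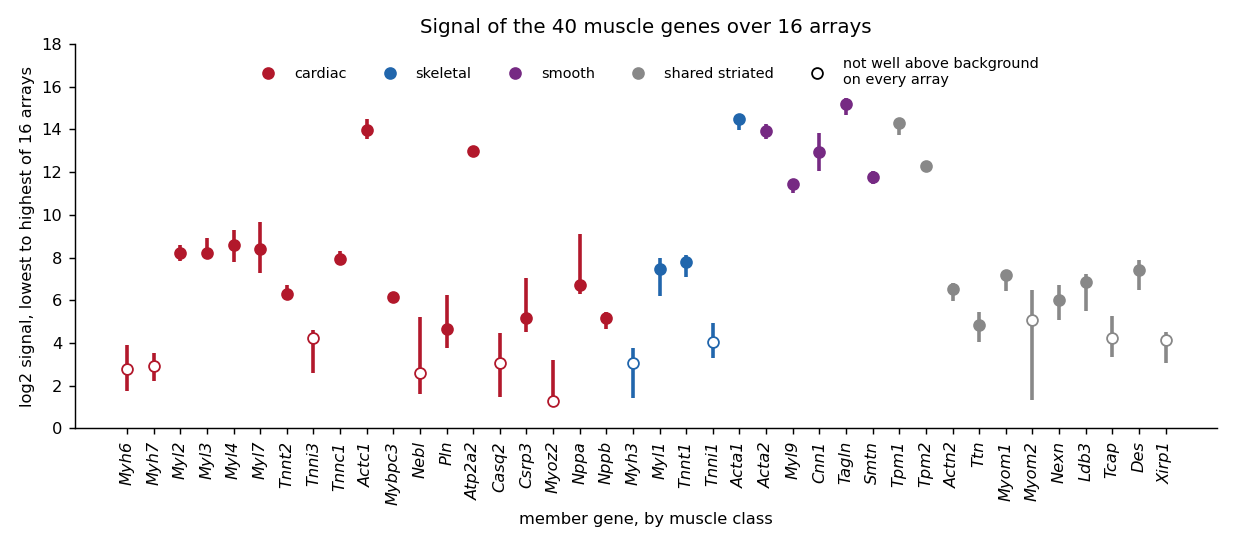
Quantile normalized log2 signal of the 40 genes over 16 arrays. Lines run from the lowest to the highest array and points mark the median, with open points for the 11 genes that were not well above background on every array. Probes differ in brightness by design, so that the range of a gene can be read but genes cannot be ranked by level.

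Sequences upstream of the start were on hand for 34 of the 40 genes, from RefSeq on build GRCm38.p6. They are shown for the 5 genes whose difference between WS1442 and DMSO at 24 h passed the test whichever 1 sample was left out, as the 250 bases before the annotated start, 5′ to 3′ on the strand of the gene. Csrp3 has a pair of annotated starts. Capitals mark matches, on either strand, to the CArG box (the site bound by SRF, a main activator of muscle actin genes), to CATTCC (an element read by TEAD factors) and to AGATAA or TGATAA (sites of the GATA type).

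Myl7, chr11:5898783-5899032, minus strand: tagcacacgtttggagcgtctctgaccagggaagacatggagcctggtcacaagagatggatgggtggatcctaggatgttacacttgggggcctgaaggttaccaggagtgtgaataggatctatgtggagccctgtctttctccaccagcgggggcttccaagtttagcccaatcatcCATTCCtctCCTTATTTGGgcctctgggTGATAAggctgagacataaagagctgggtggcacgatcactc

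Csrp3 first start, chr7:48848052-48848301, minus strand: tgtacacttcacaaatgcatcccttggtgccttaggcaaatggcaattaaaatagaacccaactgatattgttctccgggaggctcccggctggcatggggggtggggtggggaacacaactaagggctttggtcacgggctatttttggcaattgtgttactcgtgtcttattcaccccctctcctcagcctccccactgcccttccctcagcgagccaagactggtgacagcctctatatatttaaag

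Csrp3 second start, chr7:48843672-48843921, minus strand: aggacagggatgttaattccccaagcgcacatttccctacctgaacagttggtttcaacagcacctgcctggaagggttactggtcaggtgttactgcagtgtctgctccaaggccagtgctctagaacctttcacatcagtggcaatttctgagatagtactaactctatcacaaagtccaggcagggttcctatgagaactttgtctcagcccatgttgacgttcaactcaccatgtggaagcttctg

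Myl1, chr1:66945057-66945306, minus strand: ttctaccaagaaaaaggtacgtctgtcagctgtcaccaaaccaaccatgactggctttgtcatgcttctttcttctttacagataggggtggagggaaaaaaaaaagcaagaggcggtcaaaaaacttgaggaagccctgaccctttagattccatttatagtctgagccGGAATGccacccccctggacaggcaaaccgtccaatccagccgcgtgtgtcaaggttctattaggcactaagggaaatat

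Myom1, chr17:71019307-71019556, plus strand: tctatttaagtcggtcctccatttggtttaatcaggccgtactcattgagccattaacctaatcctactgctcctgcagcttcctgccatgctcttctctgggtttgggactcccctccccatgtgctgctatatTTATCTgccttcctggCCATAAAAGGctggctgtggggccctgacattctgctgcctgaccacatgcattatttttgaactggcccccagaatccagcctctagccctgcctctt

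Tpm1, chr9:67049214-67049463, minus strand: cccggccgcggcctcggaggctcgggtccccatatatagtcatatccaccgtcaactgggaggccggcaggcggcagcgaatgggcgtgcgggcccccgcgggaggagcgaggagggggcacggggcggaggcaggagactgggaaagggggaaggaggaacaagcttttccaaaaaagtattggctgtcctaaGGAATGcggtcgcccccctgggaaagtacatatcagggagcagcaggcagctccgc

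Myl7 holds a CArG box between 61 and 52 bases before the start, with a CATTCC at 70 to 65 and a TGATAA at 42 to 37, none of which overlap. Myom1 holds a CArG box at 99 to 90 and a GATA-type match at 115 to 110. Myl1 and Tpm1 hold 1 CATTCC match each, and neither Csrp3 window holds any of these letters. Among all 34 genes, 8 had a CArG box upstream (Acta1, Actc1, Ldb3, Myl3, Myl7, Myl9, Myom1 and Nebl), which is 23.5% against 1.62% of the 27025 genes with such sequence. For CATTCC the figures were 38.2% and 14.4%, for the GATA type 26.5% and 18.8%, and for the MEF2 motif 11.8% and 3.42%. A match is a string of letters and not a measured binding site, and the genes with a CArG box did not share a direction of change: at 24 h Myl7 and Myl9 were lower, Myom1 higher and Actc1 and Acta1 uncalled with WS1442.

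The first comparison asked what WS1442 had changed after 6 h. Of the 35 tested genes 2 were upregulated and 1 was downregulated at a Benjamini-Hochberg adjusted p under 0.05 in limma, where 5.32% of all 30969 tested genes passed (3.95% upwards and 1.38% downwards). The strongest was Myl1, an essential light chain of fast skeletal muscle. Its log2 signals were 6.20 and 6.19 with DMSO and 7.17, 7.22 and 7.49 with WS1442. Every WS1442 sample lay above both DMSO samples, and the log2 (fold change) was 1.10 ± 0.13 (SE; 2.14-fold, limma adjusted p = 0.000393).

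Myl7 rose and Myl3 fell with WS1442 at 6 h. Myl7 read 7.65 and 8.01 with DMSO and 8.53, 8.14 and 8.65 with WS1442 (log2 (fold change) 0.61 ± 0.16, limma adjusted p = 0.0393). Myl3, the ventricular essential light chain, read 8.92 and 8.85 with DMSO and 8.26, 8.37 and 8.01 with WS1442 (−0.67 ± 0.17, limma adjusted p = 0.0368). The other cardiac light chains, atrial Myl4 and ventricular Myl2, were not called (−0.11 and −0.14). Groups did not overlap for Myl7 or Myl3, but both calls were lost in fits that left out 1 sample and in other fits. Within the time point alone the adjusted p was 0.101 for Myl7 and 0.0942 for Myl3, without the trended prior 0.0805 and 0.0766, and without the filter on dim probes 0.08 and 0.0765. With array row as a block it was 0.0645 and 0.0501, and Myl7 was at 0.0579 with array weights. Without DMSO 6 h replicate 1 the adjusted p was 0.466 for Myl7 and 0.299 for Myl3, and without WS1442 6 h replicate 3 it was 0.145 and 0.136. Myl3 also lost its call without DMSO 6 h replicate 2 (0.104) or MeOH eluate 24 h replicate 1 (0.0511), and Myl7 without WS1442 6 h replicate 1 (0.0711), MeOH eluate 6 h replicate 1 (0.0524), WS1442 24 h replicate 2 (0.0532) or MeOH eluate 24 h replicate 2 (0.0507). The count of 3 fell to 1 without either of DMSO 6 h replicate 1 and WS1442 6 h replicate 3, and rose to 5 without MeOH eluate 24 h replicate 3. Myl1 kept its call without any single sample, with a highest adjusted p of 0.00737.

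MeOH eluate at 6 h changed more of these genes. In limma 5 rose and 5 fell of 35, beside 16.9% of all genes, of which 8.42% rose and 8.49% fell. The same DMSO samples served both treatments, so the agreement of the results is not independent evidence. Myl1 rose to 7.68, 7.87 and 7.98, or 1.65 ± 0.13 on the log2 scale (3.13-fold, adjusted p = 1.31e-06). Myl7 rose to 8.85, 9.03 and 8.74 (1.05 ± 0.16, 2.06-fold, adjusted p = 0.000503). Both genes were above every DMSO sample of that time. The smooth muscle calponin gene Cnn1, whose product binds actin, read 13.11 and 12.99 with DMSO and 13.82, 13.81 and 13.84 with MeOH eluate (0.77 ± 0.11, 1.71-fold, adjusted p = 0.000212). These 3 calls held without any single sample.

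The other calls at 6 h with MeOH eluate were smaller or dimmer. Pln, the phospholamban gene that restrains the calcium pump, fell from 5.88 and 6.09 to 5.27, 4.57 and 5.06 (−1.02 ± 0.29, 2.03-fold, adjusted p = 0.0246). With normexp background correction the Pln difference was −0.42 (adjusted p = 0.00875), and without the filter on dim probes its adjusted p was 0.0543. With the replicate number as a block the limma adjusted p of Pln was 0.0781. Myl3 fell by 0.64 and the ventricular regulatory light chain Myl2 by 0.31, while the slow skeletal troponin Tnnt1 fell by 0.29 and the smooth muscle gene Smtn by 0.22. Tagln, which encodes the actin-binding transgelin, rose by 0.24. Myom2, an M-line gene, was fitted at 2.07 ± 0.44 higher (adjusted p = 0.00534). Its DMSO samples read 1.32 and 3.39, of which 1 was well above background, and its MeOH eluate samples 4.88, 4.57 and 3.84, of which 2 were. Without DMSO 6 h replicate 1 the Myom2 difference was 1.03 at an adjusted p of 0.0999, and with normexp background correction it was 0.31 at 0.0233, so its size rests on dim readings.

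Most of these smaller calls were lost in fits that left out 1 sample. Without DMSO 6 h replicate 1 differences were −0.29 for Myl2, −0.61 for Myl3, −1.13 for Pln, −0.30 for Tnnt1 and 0.25 for Tagln. Without DMSO 6 h replicate 2 they were −0.33, −0.68, −0.91, −0.28 and 0.23 in the same order. Each of these fits left 1 DMSO sample at 6 h, so the loss of calls there cannot be laid to the sample left out. Without MeOH eluate 6 h replicate 3 differences were −0.23, −0.48, −1.06, −0.26 and 0.23. Their limma adjusted p-values were 0.0719, 0.0809, 0.052, 0.107 and 0.0637. Pln was also lost without MeOH eluate 6 h replicate 2 (0.0787), Tnnt1 without MeOH eluate 6 h replicate 1 (0.0908), and Smtn, which lay at the threshold itself, was lost in 12 of 16 fits that left out 1 sample. The count of 10 became 3 without DMSO 6 h replicate 1, 6 without DMSO 6 h replicate 2 and 4 without MeOH eluate 6 h replicate 3.

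**Figure D2:**
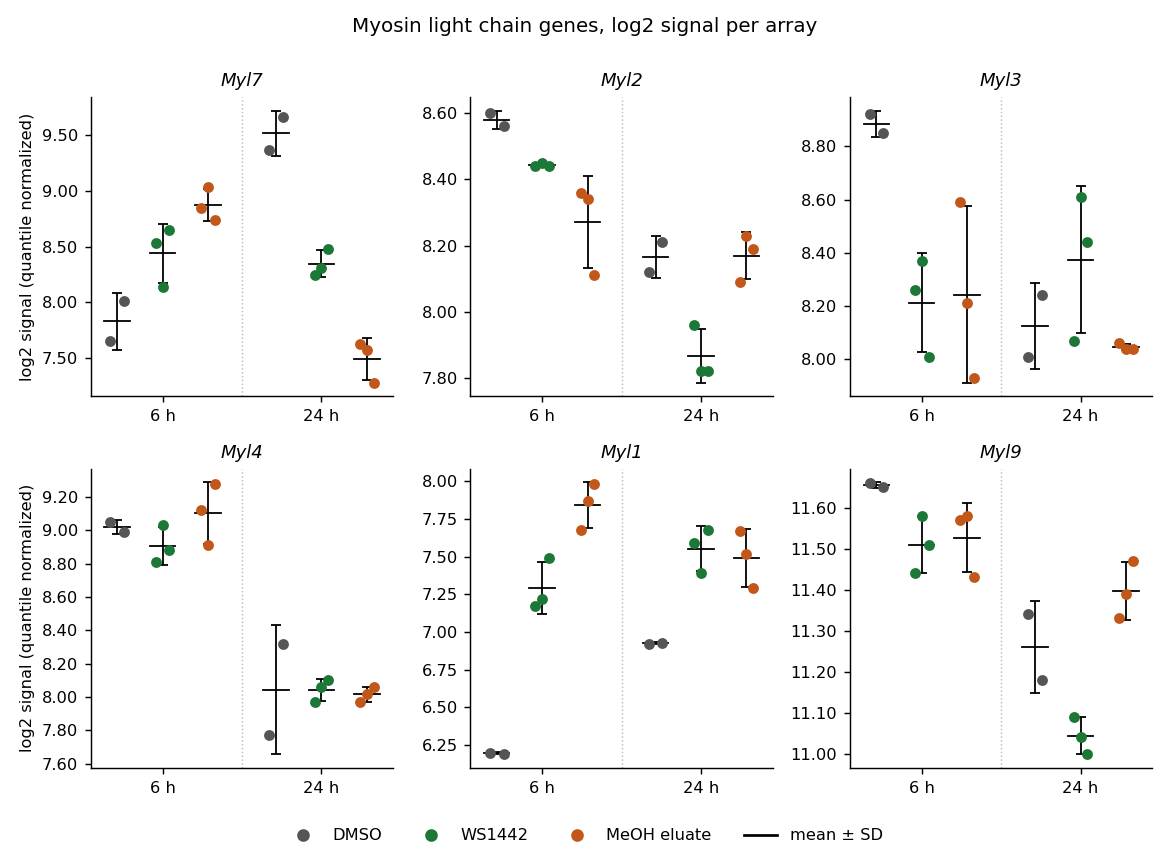
Quantile normalized log2 signal of 6 myosin light chain genes on each array at 6 h and 24 h, with the mean and SD of each group. Myl7 lay highest with MeOH eluate at 6 h and highest with DMSO at 24 h. The brightest Myl1 probe was above DMSO in every treated group. Vertical axes differ between panels and do not start at 0.

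After 24 h of WS1442, 13 of 35 genes had changed in limma, 6 upwards and 7 downwards, and 24.6% of all genes passed the same threshold, 12.4% upwards and 12.1% downwards. The split depended on scaling: with arrays scaled to their 75th percentile 3 genes rose and 9 fell. Csrp3, a muscle LIM protein of the Z-disc, had the largest rise. It read 5.23 and 4.51 with DMSO and 6.27, 6.56 and 6.39 with WS1442, a difference of 1.54 ± 0.21 (2.90-fold, adjusted p = 0.000141). At 6 h all 8 samples lay between 4.75 and 5.23, so that only the treated 24 h samples stood above 6. With normexp background correction the difference was 0.70 (adjusted p = 0.000113), under 2-fold. The WS1442 samples at 24 h also stood apart in labelling, with 31.8, 32.8 and 32.3 pmol of Cy3 per µg of cRNA against 26.1 and 25.8 for DMSO and 30.3, 28.2 and 27.1 for MeOH eluate, and WS1442 24 h replicate 2 had the lowest RNA integrity number, 8.6. The part of labelling and RNA quality in these results was not tested.

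Myl7 fell at 24 h. DMSO samples read 9.37 and 9.66 and WS1442 samples 8.25, 8.31 and 8.48, a log2 (fold change) of −1.17 ± 0.16 (2.24-fold, adjusted p = 0.000159). Every WS1442 sample was below both DMSO samples, the reverse of the order at 6 h. Myl1 stayed higher, with 6.92 and 6.93 in DMSO against 7.59, 7.39 and 7.68 (0.63 ± 0.13, adjusted p = 0.00293).

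Filament genes shared by striated muscles made up part of the rest. Myom1, an M-line crosslinker, rose by 0.69 ± 0.12 from 6.68 and 6.43 to 7.08, 7.34 and 7.31 (adjusted p = 0.000937). Tropomyosin Tpm1 read 13.98 and 13.74 with DMSO and 14.17, 14.18 and 14.17 with WS1442 (0.32 ± 0.06, adjusted p = 0.00133). Scaling to the 75th percentile lowered the Tpm1 difference to 0.11 at an adjusted p of 0.234. Nexn, a Z-disc protein that binds F-actin, fell by 0.85 ± 0.23 (adjusted p = 0.0137), with 6.72 and 6.02 in DMSO and 5.87, 5.62 and 5.07 with WS1442. Without DMSO 24 h replicate 1 the Nexn difference was −0.50 at an adjusted p of 0.237, and without WS1442 24 h replicate 3 it was −0.62 at 0.0574. Normexp background correction gave −0.46 (0.0073).

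The troponin genes Tnnc1 and Tnnt2 and the light chain gene Myl2 fell slightly with WS1442 at 24 h, while Tnni3 and Myl3 were not called, at 0.90 and 0.25. Tnnc1, the calcium-binding troponin C of heart and slow muscle, fell by 0.42 ± 0.10, Tnnt2, the cardiac troponin T, by 0.35 ± 0.12 and Myl2 by 0.30 ± 0.08, at adjusted p of 0.00557, 0.0457 and 0.0167. Without DMSO 24 h replicate 1 adjusted p-values were 0.108 for Tnnc1 and 0.412 for Tnnt2, and Tnnt2 lost its call in 13 of 16 fits that left out 1 sample. Myl2 lost it without DMSO 24 h replicate 2 (0.102) and without WS1442 24 h replicate 2 (0.0509) or 3 (0.0571).

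Smooth muscle genes split at 24 h with WS1442. Acta2, smooth muscle actin, fell by 0.19 and the regulatory light chain Myl9 by 0.22, while Tagln rose by 0.24 and Smtn by 0.25. All of these differences were under 1.2-fold. Tagln was −0.02 under scaling to the 75th percentile (adjusted p = 0.918) and 0.15 without DMSO 24 h replicate 2 (0.156). Acta2 lost its call in 11 of 16 fits that left out 1 sample, with the highest adjusted p, 0.232, without DMSO 24 h replicate 1. Myl9 lost it without DMSO 24 h replicate 1 (0.276) or WS1442 24 h replicate 2 (0.0503) or 3 (0.0723), and Smtn without either DMSO 24 h replicate (0.0761 and 0.108) or WS1442 24 h replicate 2 (0.0872) or 3 (0.0511). The count of 13 fell to 8 without WS1442 24 h replicate 2 and to 7 without WS1442 24 h replicate 3. Csrp3, Myl7, Myl1, Myom1 and Tpm1 kept their calls without any single sample.

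MeOH eluate for 24 h left 6 genes higher and 3 lower in limma, beside 17.9% of all genes, 9.37% higher and 8.50% lower. Myl7 had the largest difference of the set. Its samples read 7.63, 7.57 and 7.28 against 9.37 and 9.66 with DMSO, a log2 (fold change) of −2.02 ± 0.16 (4.05-fold, adjusted p = 8.44e-07). Csrp3 read 6.63, 6.82 and 7.05 and was 1.96 ± 0.21 higher than with DMSO (3.90-fold, adjusted p = 1.25e-05). With normexp background correction it was 0.95 higher (adjusted p = 4.78e-06). Groups were fully separate for both genes, and both calls held without any single sample.

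Tpm1 rose to 14.44, 14.35 and 14.51 (0.57 ± 0.06, adjusted p = 9.68e-06), Tagln from 14.84 and 14.67 to 15.20, 15.13 and 15.26 (0.44 ± 0.06, adjusted p = 0.000217) and Myl1 by 0.57 ± 0.13 (adjusted p = 0.00657). These 3 genes also kept their calls without any single sample. Myom1 rose by 0.48 ± 0.12 (adjusted p = 0.0113), a call lost without DMSO 24 h replicate 2 (0.36, adjusted p = 0.116). Tnnt2 fell by 0.51 ± 0.12 (adjusted p = 0.00835) and was lost without DMSO 24 h replicate 1 (−0.36, adjusted p = 0.142). Tnnc1 fell by 0.30 and Smtn rose by 0.23, near the threshold at adjusted p of 0.0437 and 0.0421. Tnnc1 lost its call in 8 and Smtn in 12 of 16 fits that left out 1 sample. The highest adjusted p-values were 0.425 for Tnnc1 without DMSO 24 h replicate 1 and 0.171 for Smtn without DMSO 24 h replicate 2.

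**Figure D3:**
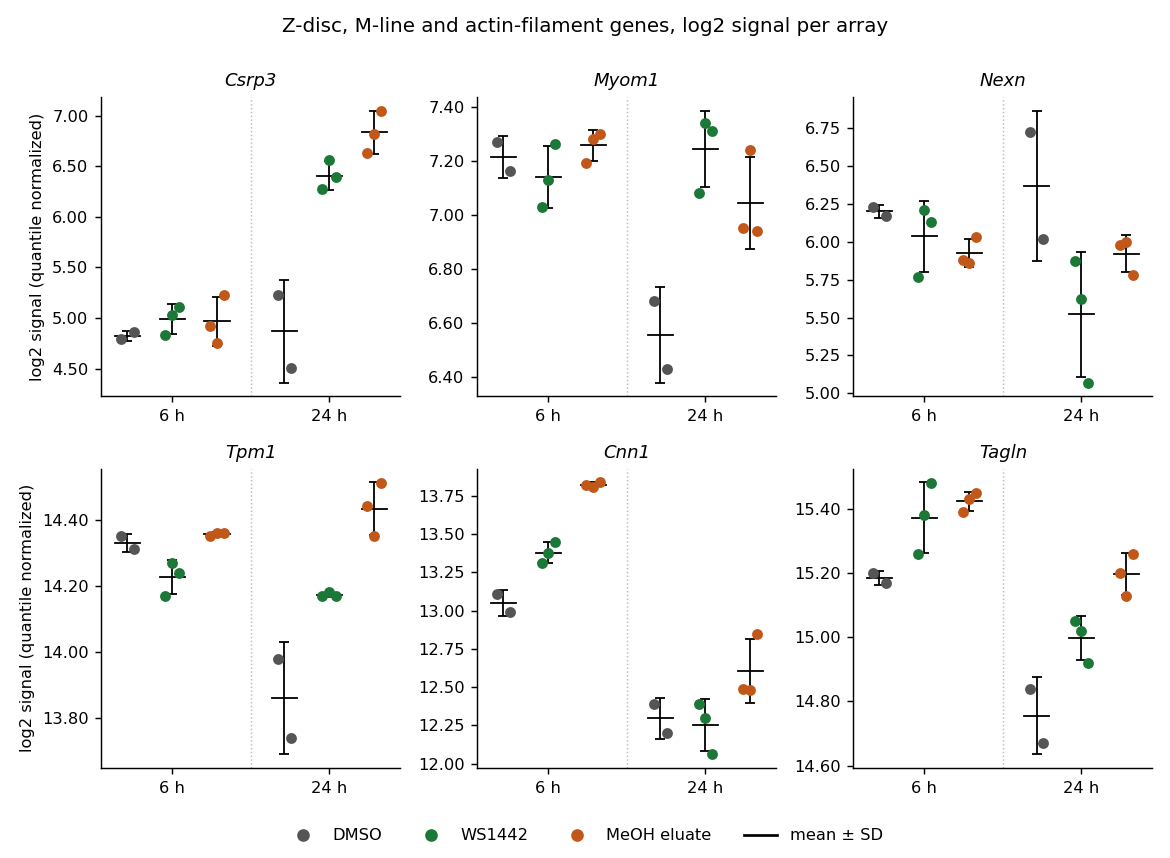
Quantile normalized log2 signal of 6 Z-disc, M-line and actin-filament genes on each array at 6 h and 24 h, with the mean and SD of each group. Csrp3 stood above 6 in the 6 treated samples at 24 h and below 5.3 in all others, while Tpm1, Cnn1 and Tagln were lower at 24 h than at 6 h with DMSO. Vertical axes differ between panels and do not start at 0.

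Counted over the 4 comparisons with DMSO, 18 of the 35 tested genes were called at least once and 17 never, where 39.4% of all tested genes were called at least once. Myl1, by its brightest probe, and Myl7 were called in all 4. Myl7 and Smtn were called in both directions, as were 1.73% of all genes, and the 3 calls of Smtn were lost in 17, 10 and 21 of 28 alternative fits. Of 35 calls, 9 exceeded 2-fold, and these belonged to Myl7, Csrp3, Myl1, Pln and Myom2. Normexp background correction brought the calls of Csrp3, Pln and Myom2 and those of Myl1 with WS1442 (0.70) and Myl7 with MeOH eluate (0.83) at 6 h under 2-fold. By the limits of a fold change above 2 and an unadjusted p under 0.05, which the study applied to its arrays, 2, 4, 3 and 4 genes passed with WS1442 and MeOH eluate at 6 h and the same treatments at 24 h, beside 0.433%, 2.10%, 2.04% and 2.94% of all genes. None passed them between the treatments at 6 h or 24 h, where 1.19% and 0.471% of all genes did, and 2 and 4 passed for the change of the WS1442 and MeOH eluate effects with time, beside 1.98% and 3.29%. The median log2 difference over the 35 genes stayed near that of all genes in each comparison: −0.09 against −0.01 with WS1442 and −0.06 against 0.00 with MeOH eluate at 6 h, then −0.01 against 0.04 and 0.02 against 0.01 at 24 h. By class, the 11 shared striated genes had the medians farthest from this, at 24 h 0.34 with WS1442 and 0.42 with MeOH eluate, although only 3 and 2 of them were called.

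Genes that were not called include several of the best known heart genes. Cardiac actin Actc1 differed from DMSO at 24 h by −0.05 with WS1442 (95% confidence interval −0.25 to 0.14) and by −0.03 with MeOH eluate (−0.23 to 0.17). The calcium pump gene Atp2a2 differed by 0.03 (−0.07 to 0.13) and −0.04 (−0.14 to 0.06). The atrial and fetal essential light chain Myl4 differed by −0.04 with MeOH eluate at 24 h (−0.32 to 0.25). For these values a 2-fold change lay outside the interval. A second probe of Atp2a2, to NM_009722.3, was called with MeOH eluate at 6 h (−0.31, limma adjusted p = 0.011). The titin gene Ttn, the myosin-binding protein Mybpc3, the Z-disc actinin Actn2, desmin (Des), the tropomyosin Tpm2 and the Z-disc gene Ldb3 were not called in any comparison with DMSO either.

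Nppa and, with MeOH eluate, Tnni3 exceeded 2-fold at 24 h without passing the adjusted threshold. Nppa, the atrial natriuretic peptide gene, read 6.47 and 9.10 in the DMSO samples at 24 h, a range wider than that of all other 14 samples, which lay between 6.30 and 7.27. The fitted differences at 24 h were −1.05 ± 0.48 with WS1442 and −1.14 ± 0.48 with MeOH eluate (limma adjusted p = 0.134 and 0.129), with DMSO 24 h replicate 2 as the high sample. Tnni3 read 2.57 and 4.36 with DMSO and between 4.29 and 4.60 in all treated samples at 24 h (1.01 ± 0.40 with MeOH eluate, adjusted p = 0.0991). Here DMSO 24 h replicate 1 was the low sample, and it was not well above background. The DMSO samples at 24 h varied most among the groups over these genes, with a median SD of 0.18 against 0.05 at 6 h. Their shares of gene spots well above background were 63.0% and 55.5%, the highest and close to the lowest of the 16 arrays.

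**Figure D4:**
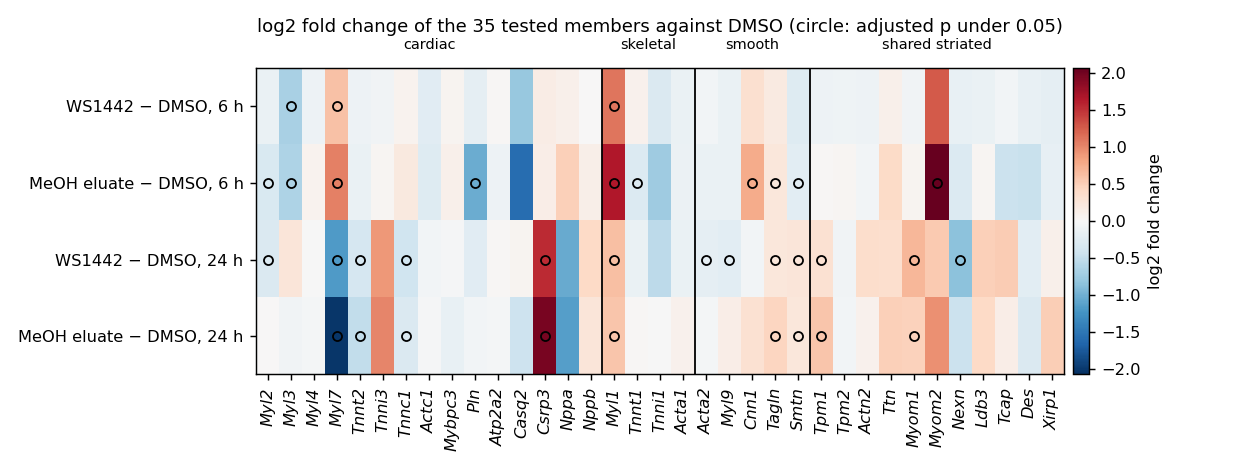
Log2 (fold change) against DMSO of the 35 tested genes by muscle class, with a circle where the limma adjusted p was under 0.05. Myl7 turned from higher at 6 h to lower at 24 h with both treatments, and Csrp3 was higher at 24 h. The brightest Myl1 probe was higher throughout.

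The interaction of treatment and time asked whether the difference from DMSO itself had changed between 6 h and 24 h. Slide and time point coincide on these arrays, and DMSO on the same slide served as the reference for each effect. For WS1442 the effect differed for 7 of 35 genes, with 5 more positive and 2 more negative at 24 h, beside 12.4% of all genes, 5.51% more positive and 6.92% more negative. With scaling to the 75th percentile the split was 4 and 4. For MeOH eluate it differed for 6 genes, 3 each way, beside 7.52% of all genes, 3.83% and 3.69% by direction. Myl7 changed by −1.78 ± 0.23 with WS1442 and −3.06 ± 0.23 with MeOH eluate (limma adjusted p = 0.000761 and 1.71e-06). Csrp3 changed by 1.37 ± 0.29 and 1.82 ± 0.29 (adjusted p = 0.00894 and 0.00122). With normexp background correction the Csrp3 values were 0.67 and 0.93. The rise of Myl1 with MeOH eluate was 1.08 smaller at 24 h than at 6 h (−1.08 ± 0.18, adjusted p = 0.00192), but the mean of its probes gave −0.27 at an adjusted p of 0.686.

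DMSO levels of Myl7 are part of this turn. Its mean with DMSO was 7.83 ± 0.26 at 6 h and 9.51 ± 0.21 at 24 h (SD, n = 2 each), whereas with MeOH eluate it went from 8.87 ± 0.15 to 7.49 ± 0.19 (SD, n = 3 each). Csrp3 was level with DMSO, at 4.83 and 4.87, and higher at 24 h in treated cells alone. Over the 35 genes, 24 had lower and 11 higher mean signal with DMSO at 24 h than at 6 h. No share over all genes is given beside these counts, so they are not read as a trait of this set. Over 1 on the log2 scale, Pln was lower by 1.74, and Myom2 (3.07), Myl7 (1.68) and Nppa (1.21) were higher. Myom2 was dim at 6 h, and the Nppa rise rested on DMSO 24 h replicate 2. Time and slide cannot be told apart in these levels, and no test was made.

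A direct comparison of MeOH eluate and WS1442 was made at doses that differ, 0.1 mg/ml against 0.25 mg/ml. At 6 h 4 of 35 genes differed in limma, 2 each way, beside 12.2% of all genes, 4.67% higher and 7.51% lower with MeOH eluate. With MeOH eluate Myl1 was 0.55 ± 0.12 and Cnn1 0.44 ± 0.09 higher, while Tnnt1 was 0.38 ± 0.08 lower (adjusted p = 0.00928, 0.0101 and 0.00813). Pln was 0.83 ± 0.26 lower (adjusted p = 0.047), a call lost in 13 of 16 fits that left out 1 sample, with the highest adjusted p, 0.171, without WS1442 6 h replicate 2. Myl3 differed by 0.03 between the treatments, with an interval from −0.30 to 0.36. The Myl7 difference was 0.43, with an interval from 0.13 to 0.74 and an adjusted p of 0.0609.

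At 24 h 7 genes differed between the treatments, 6 of them higher with MeOH eluate and 1 lower, beside 14.4% of all genes, 7.50% higher and 6.89% lower. Myl7 was 0.85 ± 0.14 lower with MeOH eluate (adjusted p = 0.00148), Myl9 0.35 ± 0.06 higher (0.00111) and Tpm1 0.26 ± 0.05 higher (0.00511), and these held without any single sample. Cnn1 (0.36), Myl2 (0.30), Acta1, the skeletal actin gene (0.22), and Tagln (0.20) were higher at adjusted p of 0.0207, 0.0136, 0.0375 and 0.0326. Without WS1442 24 h replicate 3 they were at 0.12, 0.0653, 0.169 and 0.155, and without MeOH eluate 24 h replicate 3 at 0.0966, 0.0515, 0.157 and 0.135. Myl2, Acta1 and Tagln were also lost without WS1442 24 h replicate 2 (0.0515, 0.0688 and 0.0617), Myl2 without MeOH eluate 24 h replicate 2 (0.0576) and Tagln without MeOH eluate 24 h replicate 1 (0.0751). The count of 7 fell to 3 without MeOH eluate 24 h replicate 3 or WS1442 24 h replicate 3, and to 4 without WS1442 24 h replicate 2. Csrp3 did not pass, with a difference of 0.43 and an interval from 0.03 to 0.82 (adjusted p = 0.147), and Myl1 differed by −0.06 (−0.31 to 0.19).

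Several genes had more than 1 probe above background, and these did not always move alike. For Myl1 the brightest probe, to NM_001113387.1, gave the values above. The probe to NM_021285.3 rose by 1.28 with MeOH eluate at 6 h (adjusted p = 0.000979) and differed by 0.78 with WS1442 (0.0509), but its differences at 24 h were 0.05 and 0.16 (0.887 and 0.706). The third Myl1 probe, to ENSMUST00000151328, had the opposite sign at 6 h, −0.85 with WS1442 and −0.55 with MeOH eluate, and was not called. For Myom1 the second probe, to the non-coding XR_385297.1, differed by −0.17 and −0.23 at 24 h. For Tpm1 the probe to NM_001164248.1 followed the brightest probe with MeOH eluate at 24 h (0.61) but read 0.04 with WS1442. The second Tpm2 probe, to NM_001277876.1, was lower at 24 h with WS1442 (−0.38, adjusted p = 0.000226) and MeOH eluate (−0.18, adjusted p = 0.0333), where the brighter probe was not called. The second Smtn probe was called with MeOH eluate at 6 h and in no other comparison with DMSO (−0.56, adjusted p = 0.00476). Averaging the probes of a gene ended the calls of Myl1 with WS1442 at both times (adjusted p = 0.472 and 0.587) and with MeOH eluate at 24 h (0.126), of Myom1 at 24 h (0.227 and 0.657) and of Tpm1 with WS1442 at 24 h (0.88). It also ended those of Smtn at 24 h with WS1442 (0.09, adjusted p = 0.448) and MeOH eluate (0.1), of Acta2 with WS1442 at 24 h (0.053), and of Myl1 between the treatments at 6 h (0.152). Among the interactions it ended Myl1 with MeOH eluate (0.686) and Myom1 and Tpm1 with WS1442 (0.132 and 0.406). Myl7 and Csrp3 each had 1 probe above background. The probes target different transcripts of a gene, and a difference between transcripts and a difference between probes cannot be told apart.

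**Figure D5:**
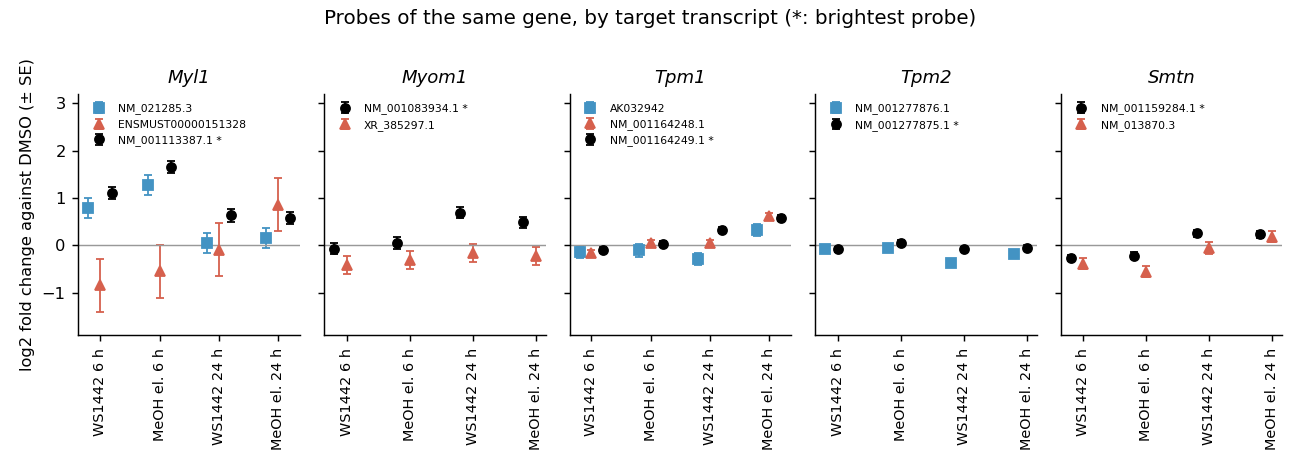
Log2 (fold change) against DMSO with SE for each probe above background of 5 genes, labelled by its target transcript, at 6 h and 24 h. Black circles mark the brightest probe, and the other probes of Myl1 and Myom1 lie below it at 24 h with WS1442.

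Other genes of the contractile apparatus and its control, listed from general knowledge, changed in both directions. Their counts can be read against the shares of all genes called, 5.32% and 16.9% at 6 h and 24.6% and 17.9% at 24 h for WS1442 and MeOH eluate. Of 36 tested further sarcomere and Z-disc genes, 0 rose and 1 fell with WS1442 at 6 h, 3 rose and 4 fell with MeOH eluate at 6 h, 3 rose and 6 fell with WS1442 at 24 h, and 6 rose and 3 fell with MeOH eluate at 24 h. Ankrd1, a cardiac ankyrin-repeat protein of the titin region, turned as Myl7 did: it was 1.11 ± 0.14 higher with MeOH eluate at 6 h and 0.97 and 0.91 lower with WS1442 and MeOH eluate at 24 h. Pdlim3, a Z-disc protein, fell by 1.24 and 1.40 at 24 h. The small heat shock protein Cryab, which guards desmin and titin, was 1.05 higher with MeOH eluate at 24 h. Of 29 smooth muscle and non-muscle contractile genes, 4 rose with WS1442 at 6 h, 8 rose and 1 fell with MeOH eluate at 6 h, 7 rose and 4 fell with WS1442 at 24 h, and 10 rose and 1 fell with MeOH eluate at 24 h. The only one of them changed over 2-fold was synemin (Synm, 1.30 higher with MeOH eluate at 24 h). Of 22 genes of calcium handling and muscle metabolism, 1 rose with WS1442 and 4 with MeOH eluate at 6 h, 5 and 6 rose at 24 h, and none fell. Dystrophin (Dmd) was 1.16 and 1.02 higher there, and Hrc, a calcium-binding protein of the calcium store, was 1.04 higher with MeOH eluate at 6 h.

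Regulators of muscle genes changed in both directions. Of 10 genes of the SRF, myocardin and MEF2 group, 2 rose with WS1442 at 6 h, 2 rose and 1 fell with MeOH eluate at 6 h, 3 rose and 1 fell with WS1442 at 24 h, and 1 rose with MeOH eluate at 24 h. None of them changed over 2-fold. The largest difference among them was 0.74, for Myocd with WS1442 at 24 h, which read 4.40 with DMSO and 5.14 with WS1442. Mef2c read 6.40 and 6.88 in the same groups. Of the 10 genes, 6 read higher and 4 lower there. Among the lower were Mef2a, with 8.33 and 7.84, and Mef2b, with 8.03 and 7.69. Srf itself was 0.50 ± 0.11 higher with WS1442 at 24 h (adjusted p = 0.00532). Of 11 tested heart progenitor markers, 1 fell with WS1442 at 6 h, and 2 rose and 1 fell with MeOH eluate at 6 h. At 24 h 1 rose and 2 fell with WS1442. With MeOH eluate at 24 h none rose and 4 fell, beside 8.50% of all genes that fell. These were Gata4 (−1.38), Gata6 (−1.48), Hand2 (−0.70) and Isl1 (−0.57). The mean log2 signal of the list at 24 h was 7.22 with DMSO and 7.13 with WS1442, against 6.71 with MeOH eluate.

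Markers of other cell types moved alongside these results. Neural markers rose at 24 h for 4 of 5 tested genes with WS1442 and 3 of 5 with MeOH eluate, beside 12.4% and 9.37% of all genes. Their mean log2 signal at 24 h was 8.17 with DMSO and 8.62 with either treatment, and with DMSO at 6 h it was 8.70. At 6 h 1 rose with WS1442 and 2 with MeOH eluate. The mesenchyme and fibroblast genes Col1a1, Col1a2 and Thy1 fell with MeOH eluate at 24 h, and the list mean went from 8.19 to 7.50. Dcn, the remaining tested gene of that list, went the other way, from 4.27 with DMSO to 4.71, and was not called. Col3a1, Postn and Lum were well above background on no array. Early mesoderm markers fell for 2 of 6 genes with WS1442 and 3 of 6 with MeOH eluate at each time. Their mean with MeOH eluate went from 8.90 to 8.18 at 6 h and from 8.74 to 8.28 at 24 h. Among skeletal progenitor markers, Myod1 rose by 0.44 with WS1442 at 24 h, and Eya1 fell with MeOH eluate by 0.64 at 6 h and 0.98 at 24 h. Of 5 endothelial markers, Cdh5 alone was called, lower with MeOH eluate at 24 h. It was well above background on 5 of 16 arrays, so no size is given. Of 4 tested endoderm markers, none was called with WS1442 at 6 h and 3 fell with MeOH eluate at 6 h. At 24 h 1 rose and 2 fell with WS1442, and Sox17 alone was called with MeOH eluate, lower by 1.65. Of 7 pluripotency markers 1 and 3 fell at 6 h and 2 and 1 at 24 h with WS1442 and MeOH eluate. Blood markers were called for 1 of 6 genes, Hbb-bh1, which was 1.45 higher with MeOH eluate at 24 h. The part of any shift in cell types in the changes of Myl7, Csrp3, Myl1 and the other muscle genes was not tested.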

How the data were processed

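Labelled RNA of 16 samples was hybridised to 1-colour Agilent arrays. The deposited scanner files hold the intensity of each spot, which the authors' feature extraction had corrected for background within an array but not normalized between arrays. A table by the authors holds intensities after quantile normalization over all arrays. Here log2 intensities of the deposited files were quantile normalized, non-uniform spots were set missing, and repeated spots were averaged. Probes were named through RefSeq accessions or, failing that, the file's gene name. A probe was kept if all arrays of 1 or more groups called it well above background, and the brightest kept probe stood for its gene. A model with 6 group means was fitted in limma 3.58.1 (R 4.3.3) with a trended prior, and p-values were adjusted by Benjamini-Hochberg over 30969 genes. Comparisons were each treatment with DMSO at its time point, MeOH eluate with WS1442, and 24 h with 6 h effects. All 8 samples of a time point lay on 1 slide. The fit was tested on simulated data. No counts stand behind a signal, so the number of arrays limits the precision.

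The members and all gene lists were chosen with earlier results of these data known. All members, all genes of marker and SRF lists, and genes of other lists changed over 2-fold at an adjusted p under 0.05 could be named. Alternatives covered scaling, background correction, the filter, the choice of probe, the authors' table, the test, blocks, array weights and each sample left out. The methods of the study name Student's t-test for pairwise comparisons and no test for the arrays, and it was run as an alternative. Promoter windows came from RefSeq on build GRCm38.p6. Tables and figures were made in Python 3.11.15.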

Additional observations from a re-analysis of the deposited data

Results flagged for a closer look

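The genes below are listed because their treatment effect at 24 h differed from that at 6 h in the limma interaction term. With WS1442 these were Myl7 (−1.78), Csrp3 (1.37), Myl3 (0.92), Myom1 (0.76), Smtn (0.52), Tnnc1 (−0.49) and Tpm1 (0.42). With MeOH eluate they were Myl7 (−3.06), Csrp3 (1.82), Myl1 (−1.08), Tpm1 (0.55), Tnnc1 (−0.50) and Smtn (0.46). Adjusted p-values from limma ran from 1.71e-06 for Myl7 to 0.0375 for Tnnc1, both with MeOH eluate. For Myl7, Csrp3 and Tpm1 with either treatment, Myl1 with MeOH eluate and Smtn with WS1442, the call held whichever 1 sample was left out, but with the mean of all probes Myl1 (MeOH eluate), Tpm1 and Myom1 (both WS1442) were not called. The others lost it at least once, Tnnc1 in 7 and 5 of 16 such fits with MeOH eluate and WS1442, Myl3 in 6, and Myom1 and Smtn with MeOH eluate in 1 each, without DMSO 6 h replicate 1 (adjusted p = 0.0599 and 0.0642). Other settings ended some of these calls too. Scaling to the 75th percentile ended Tpm1 with WS1442 (0.17, limma adjusted p = 0.236). The replicate block and the array row block each ended Tnnc1 with both treatments. Normexp background correction and the replicate block ended Smtn with MeOH eluate (0.067 and 0.069). Myl3 was lost without the filter on dim probes (0.0529) and without the trended prior (0.0516). Time point and slide cannot be told apart.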

How the results depend on the processing

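The limma counts of called genes at the settings of the report were 3 (WS1442) and 10 (MeOH eluate) at 6 h, 13 and 9 at 24 h, 4 and 7 for MeOH eluate against WS1442 at 6 h and 24 h, and 7 and 6 for the interactions. With each sample left out in turn they ranged from 1 to 5, 3 to 11, 7 to 13, 7 to 10, 3 to 5, 3 to 7, 4 to 10 and 5 to 9 in that order. By the limits of fold change above 2 and unadjusted limma p under 0.05 the counts were 4 with MeOH eluate at 6 h, 3 with WS1442 and 4 with MeOH eluate at 24 h, 0 and 0 between the treatments at 6 h and 24 h, and 2 for the WS1442 interaction. The methods' t-test gave 0 adjusted calls in each of the 6 comparisons it could be run in, and 5, 12, 10, 8, 6 and 8 at an unadjusted p under 0.05, where limma called 3, 10, 13, 9, 4 and 7 after adjustment. It could not be run for the interactions. The WS1442 count at 6 h fell to 1 without a filter on dim probes and without the trended prior. The count between treatments at 24 h fell to 4 without the trended prior and with array row as a block. With the replicate number as a block (replicate block) the counts at 6 h were 1 and 5, and no other count moved by over 1.5 times. Between samples of the same number, deviations from the group means correlated with r from −0.10 to 0.30 at 6 h. At 24 h r ran from −0.23 to 0.10. Samples of different numbers gave −0.20 to 0.25 at 6 h and −0.15 to 0.23 at 24 h. Each group mean holds only 2 or 3 samples, which constrains these values, so they cannot decide whether the numbers pair samples. Tagln with WS1442 at 24 h was −0.02 under scaling to the 75th percentile, and it was the only reversed call. Where a setting changed a result and the change was not built into it, the cause was not tested. Dim genes such as Casq2 and Myom2 are limited by signal over background.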
